A study of Homo sapiens with 4 samples.

Results

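Laminin and collagen IV chains are the 2 polymer-forming components of basement membranes, and 9 of their genes are described here on all 4 arrays of the study: LAMA3, LAMA5, LAMB1, LAMB3, LAMC1, COL4A1, COL4A2, COL4A4 and COL4A5. Every probe set that the platform annotation assigns to 1 gene symbol on this list was taken, which gave 15 of 41091 single-gene probe sets and 8 of 19775 genes. LAMA3 was not analysed here. One more probe set, whose annotation joins LAMA5 with its antisense gene, was left out. Of the 15 probe sets, 6 reached the signal filter on at least 1 array in NCI-H358 and 12 did so in A549.

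The arrays hold RNA from NCI-H358, a human bronchioloalveolar carcinoma line, and A549, a human lung adenocarcinoma line. Each line was stably transduced and antibiotic-selected with a vector for CHST11, a Golgi sulfotransferase of chondroitin chains, or with an empty vector. The groups were NCI-H358 with CHST11, NCI-H358 with empty vector, A549 with CHST11 and A549 with empty vector, with 1 array each, so no vector contrast within a line can be tested and 4 arrays limit the precision. All 4 cultures were transduced and drug-selected, and whether a group came from 1 clone or a pool is not given in the sources used here.

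Laminins are cross-shaped heterotrimers of an alpha, a beta and a gamma chain, and they polymerise on the cell surface, held by integrins and other receptors. LAMA5, LAMB1 and LAMC1 chains assemble together into a laminin found widely in adult epithelial basement membranes, including those of the airway and alveolus. LAMB3 encodes the beta chain of the laminin that anchors hemidesmosomes, the adhesion sites of basal and squamous epithelium. Collagen IV chains form triple helices that crosslink into a network beneath the laminin layer. COL4A1 and COL4A2 build the trimer found in nearly all basement membranes, COL4A3, COL4A4 and COL4A5 build one that marks the kidney glomerulus and the alveolar wall, and COL4A5 also combines with COL4A6.

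Collagen IV genes lie in head-to-head pairs whose start sites face away from each other, so the windows from 250 bases before to 50 bases after each start overlap within a pair. The windows are shown because the paired genes are compared below. They are RefSeq sequences of GRCh38.p14, 5′ to 3′ on the strand of the named gene, with the bases that also lie in the window of the partner in capitals. The starts of COL4A2 and COL4A1 are 127 bases apart, and 226 bases are shared, chr13:110307108-110307333. For COL4A4 and COL4A3 the starts are 419 bases apart with 82 bases shared, and for COL4A5 and COL4A6 they are 380 apart with 121 shared.
COL4A2, chr13:110307034-110307333, plus strand: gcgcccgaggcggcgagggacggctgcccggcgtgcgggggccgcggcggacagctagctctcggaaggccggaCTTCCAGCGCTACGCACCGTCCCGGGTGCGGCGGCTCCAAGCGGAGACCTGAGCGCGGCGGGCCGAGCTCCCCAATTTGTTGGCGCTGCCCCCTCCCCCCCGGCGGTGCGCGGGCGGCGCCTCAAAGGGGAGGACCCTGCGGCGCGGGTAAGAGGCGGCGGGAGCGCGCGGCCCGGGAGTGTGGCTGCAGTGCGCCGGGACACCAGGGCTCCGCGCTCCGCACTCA
COL4A4, chr2:227164156-227164455, minus strand: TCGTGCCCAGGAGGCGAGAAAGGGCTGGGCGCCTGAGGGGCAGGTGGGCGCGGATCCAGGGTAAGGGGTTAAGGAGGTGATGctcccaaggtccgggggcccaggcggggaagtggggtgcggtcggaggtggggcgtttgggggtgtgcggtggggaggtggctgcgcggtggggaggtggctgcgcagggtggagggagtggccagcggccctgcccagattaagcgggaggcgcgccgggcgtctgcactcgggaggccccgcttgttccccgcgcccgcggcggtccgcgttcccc
COL4A5, chrX:108439588-108439887, plus strand: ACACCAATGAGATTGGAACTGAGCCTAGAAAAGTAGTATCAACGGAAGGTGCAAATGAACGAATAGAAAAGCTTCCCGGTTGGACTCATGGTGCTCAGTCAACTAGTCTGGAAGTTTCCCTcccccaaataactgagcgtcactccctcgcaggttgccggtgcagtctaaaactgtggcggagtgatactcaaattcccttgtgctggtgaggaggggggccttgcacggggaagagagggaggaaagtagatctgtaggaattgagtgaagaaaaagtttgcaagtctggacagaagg

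Windows of LAMC1 and LAMB3 follow, as the laminin genes whose signals in the lines did not overlap at any probe set. Capitals mark the GC box, GGGCGG searched on both strands, which 44.9% of 35097 promoter windows of this length hold.
LAMC1, chr1:183023170-183023469, plus strand: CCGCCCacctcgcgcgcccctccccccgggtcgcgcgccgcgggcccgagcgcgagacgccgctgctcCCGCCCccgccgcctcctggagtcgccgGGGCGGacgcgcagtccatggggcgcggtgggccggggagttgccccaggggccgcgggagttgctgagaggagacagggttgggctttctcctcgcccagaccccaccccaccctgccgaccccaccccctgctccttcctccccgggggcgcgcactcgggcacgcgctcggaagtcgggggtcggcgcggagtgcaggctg
LAMB3, chr1:209652376-209652675, minus strand: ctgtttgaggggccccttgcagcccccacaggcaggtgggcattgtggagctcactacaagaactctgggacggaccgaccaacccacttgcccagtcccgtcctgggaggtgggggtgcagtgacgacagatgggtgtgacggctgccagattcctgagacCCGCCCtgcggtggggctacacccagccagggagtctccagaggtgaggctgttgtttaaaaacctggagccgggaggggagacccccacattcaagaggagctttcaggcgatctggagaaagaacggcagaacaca
LAMC1 holds 3 GC boxes with 79% G and C bases, LAMB1 4 with 71% and LAMA5 5 with 82.7%, against 1 with 61.3% in LAMB3 and a median of 58.7% over all windows. COL4A1 holds 2 GC boxes and COL4A2 1, both windows with 1 CCAAT box, CCAAT on either strand, which is found in 34.6% of windows. Since the COL4A1 and COL4A2 windows share most of their bases, such matches are not independent. The COL4A5 window had 49.3% G and C bases and 0 GC boxes, and that of COL4A4 74% and 0. No window of the 8 measured genes holds TATAAA on either strand (11.5% of all windows do) or the AP-1 motif TGANTCA (7.7%). LAMB3 has 3 listed windows, and the one shown lies at its annotated start. These matches are a description of the letters in each window.

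The targeted gene was checked first. At one of its 3 probe sets CHST11 stood at 1058 in NCI-H358 with CHST11 and 220.1 with empty vector, and at 343.5 in A549 with CHST11 and 129 with empty vector. The other 2 CHST11 probe sets had log2 ratios between -0.16 and 0.14. Log2 signals correlated with r = 0.996 between the NCI-H358 arrays and 0.9961 between the A549 arrays, and the median signals of the 4 arrays ran from 15.9 to 16.31. Of 10 epithelial markers, 10 were above the filter in NCI-H358 and 8 in A549, where CLDN4 and ESRP1 were under the floor on both arrays. ALDH1A1, an aldehyde dehydrogenase known to be high in A549, had 5.21 and 5.99 in NCI-H358 with CHST11 and with empty vector, and 11350 and 11160 in A549 with CHST11 and with empty vector. CDKN2A, lost in A549, was below the filter on both A549 arrays. CEACAM6, listed as an NCI-H358 marker, was under the floor on both NCI-H358 arrays, which goes against that marker. Signals were floored at 16.14, the median of all values, before log2 was taken, and a gene counted as measured in a line at a signal of at least 27 on 1 of its arrays.

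**Figure D1:**
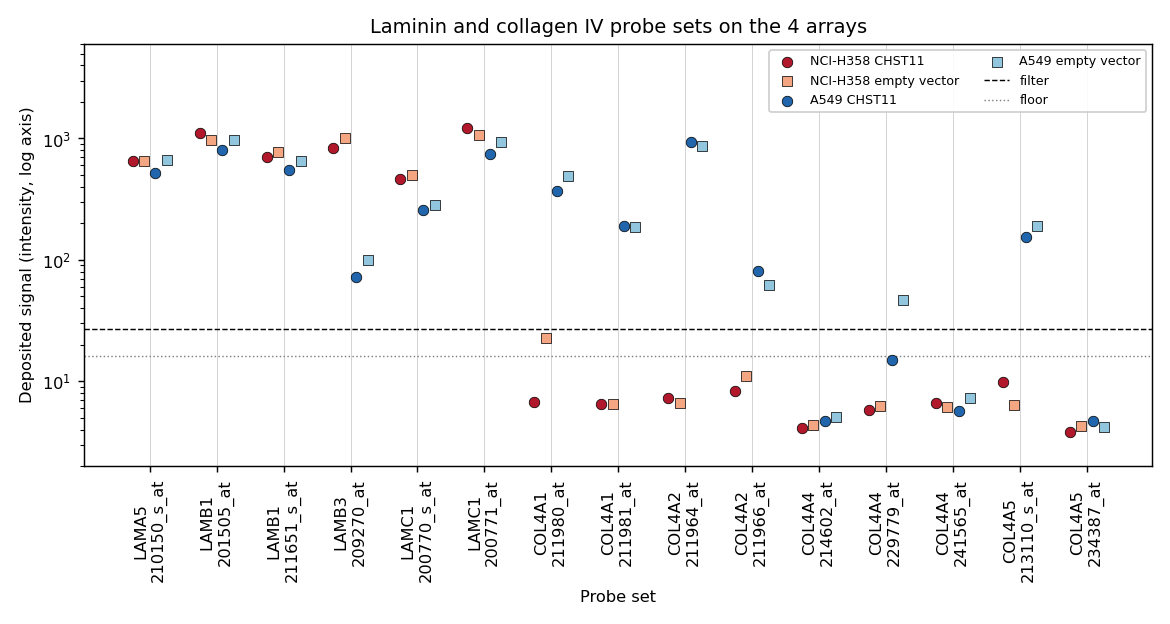
Deposited signal (log axis) of the 15 laminin and collagen IV probe sets, with NCI-H358 CHST11, NCI-H358 empty vector, A549 CHST11 and A549 empty vector side by side, and with the filter at 27 and the floor at 16.14. Laminin probe sets lie above the filter on all 4 arrays and every collagen IV probe set lies under the filter on both NCI-H358 arrays. Heights of different probe sets are not comparable, only the 4 arrays of one probe set are.

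LAMA5 and LAMB1 overlapped between the lines at their main probe sets, LAMC1 was 1.375-fold to 1.775-fold higher in NCI-H358, and LAMB3 was 10.9-fold higher there. The collagen IV chains showed the other pattern, with signal in A549 and none above the filter in NCI-H358. The genes were chosen by name with their signals on these 4 arrays already known, so both the line and the vector values count as used in the choice and are given as a description with no test. Whether a signal threshold entered the choice is not recorded, and all 8 genes with a probe set were measured in A549. A gene's main probe set is the one with its highest mean log2 signal, and another one is called its second.

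LAMA5, an alpha chain, had signals of 646.7 and 648 in NCI-H358 with CHST11 and with empty vector, and of 521.4 and 670.1 in A549 with CHST11 and with empty vector. The A549 CHST11 array was the lowest of the 4, and the A549 empty vector array the highest. The fitted log2 difference, NCI-H358 minus A549, was 0.13 (SE 0.121), with 0.31 between the CHST11 arrays and -0.05 between the empty vector arrays. The lines therefore overlapped, and the order of the lines for LAMA5 depended on the vector.

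LAMB1, the beta partner of LAMA5, had signals at its main probe set of 1116 and 971.9 in NCI-H358 with CHST11 and with empty vector, and of 809.8 and 973.9 in A549 with CHST11 and with empty vector. Its second probe set had 709.2 and 777.6 in NCI-H358 and 549.9 and 656.1 in A549, again listed with CHST11 first. In NCI-H358 the CHST11 array was the higher one at the main probe set and the lower one at the second. At the second probe set both NCI-H358 arrays lay above both A549 arrays, but at the main one the empty vector arrays of the lines were level. The fitted line difference of LAMB1 was 0.23 (SE 0.14).

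LAMC1, the gamma chain that joins LAMB1 in most laminins, had signals at its main probe set of 1216 and 1068 in NCI-H358 with CHST11 and with empty vector, and of 740.6 and 927.6 in A549 with CHST11 and with empty vector. The second probe set had 461.2 and 496.9 in NCI-H358, and 256.2 and 283.9 in A549. At both probe sets the 2 NCI-H358 arrays lay above the 2 A549 arrays, by 1.375-fold at the main one and 1.775-fold at the second. The fitted line difference at the main probe set was 0.46 (SE 0.148), with 0.715 between the CHST11 arrays and 0.20 between the empty vector arrays.

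LAMB3, the hemidesmosomal beta chain, had signals of 839.7 and 1006 in NCI-H358 with CHST11 and with empty vector, and of 72.4 and 99.12 in A549 with CHST11 and with empty vector. The lines did not overlap, and within each line the CHST11 array was the lower one. Its fitted line difference was 3.44 on the log2 scale (SE 0.098), a 10.9-fold higher signal in NCI-H358. LAMB3 has 1 single-gene probe set, so no second probe set stands beside this value.

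COL4A1, a strand of the common collagen IV trimer, had signals at its main probe set of 6.72 and 22.7 in NCI-H358 with CHST11 and with empty vector, and of 371 and 492.6 in A549 with CHST11 and with empty vector. The second probe set had 6.45 and 6.56 in NCI-H358 and 189.1 and 186.1 in A549. Both A549 arrays stood well above both NCI-H358 arrays at each probe set. With the filter as the lowest usable signal, NCI-H358 was at least 15.8-fold lower at the main probe set and at least 6.95-fold lower at the second. The single NCI-H358 value above the floor, 22.7 with empty vector at the main probe set, was not matched at the second.

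COL4A2, the other strand of that trimer and the head-to-head neighbour of COL4A1, followed the same order of lines. Its signals at the main probe set were 7.22 and 6.66 in NCI-H358 with CHST11 and with empty vector, and 940 and 867 in A549 with CHST11 and with empty vector. At the second probe set they were 8.27 and 11.1 in NCI-H358, and 81.1 and 62.3 in A549. NCI-H358 was at least 33.4-fold lower at the main probe set and at least 2.63-fold lower at the second. The size of the COL4A2 difference was not measured beyond these bounds.

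COL4A5, a chain encoded on the X chromosome, had signals at its main probe set of 9.84 and 6.35 in NCI-H358 with CHST11 and with empty vector, and of 154.6 and 191.7 in A549 with CHST11 and with empty vector. NCI-H358 was at least 6.375-fold lower. The second COL4A5 probe set lay between 3.82 and 4.74 on the 4 arrays and gave no usable signal. Its partner COL4A6, not among the 9 genes, showed the same order at its main probe set, with 6.34 and 5.97 in NCI-H358, against 125 and 135.6 in A549, which is at least 4.82-fold lower (limma adjusted p = 5.73e-05, with both NCI-H358 arrays at the floor). The other COL4A6 probe sets were under the filter on all arrays.

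COL4A4, a chain of the glomerular and alveolar collagen IV, reached the filter on 1 array only. At the main probe set the signals were 5.81 and 6.26 in NCI-H358 with CHST11 and with empty vector, and 14.95 and 46.5 in A549 with CHST11 and with empty vector. Only the A549 empty vector array stood clear of background. Its other probe sets lay between 4.11 and 7.26 on the 4 arrays. The COL4A4 line difference therefore came from 1 probe set and 1 array, and was 0 between the CHST11 arrays, where both lines were at the floor. Its head-to-head partner COL4A3 was under the floor at 7 of 7 probe sets on all 4 arrays.

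By the rule of at least 2-fold with both vectors, 1 of the 8 genes was higher in NCI-H358 than in A549, LAMB3, and 3 were lower, COL4A1, COL4A2 and COL4A5. Over all 12271 genes fitted, 10.6% were higher and 10.3% lower by that rule. COL4A2 and COL4A5 were set to the floor on both NCI-H358 arrays and COL4A1 on 1 of them. Values at the floor have no spread, so the SE of such fitted differences, 0.091 for COL4A2 and 0.113 for COL4A5, understates the error, and so do the p-values of other genes floored on both arrays of a line. With no floor the fitted differences of COL4A1, COL4A2 and COL4A5 were -5.11, -7.02 and -4.44, so their sizes depend on the floor and their direction did not.

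Markers of other cells that deposit collagen IV were looked at beside these values. Of 11 fibroblast markers, 3 reached the filter (COL1A1, COL5A1 and THY1), and the summed signal of all 11 was 277 and 298.6 on the NCI-H358 arrays and 615.5 and 633.3 on the A549 arrays. DCN, LUM, PDGFRA, PDGFRB, COL1A2, COL3A1, FAP and POSTN were under the filter on all 4 arrays, with a highest signal of 25.02. Of 10 endothelial markers, 3 reached it (PECAM1, ESAM and EGFL7), and VWF, CDH5, KDR, TEK, TIE1, CLDN5 and ROBO4 were under it at 19.2 or less. The sums of all 10 were 172.8 and 188.5 in NCI-H358 and 233.6 and 228.4 in A549. EGFL7 had 35.9 and 38.2 in NCI-H358 and 90.7 and 85.2 in A549, while limma called neither PECAM1 nor ESAM between the lines. Of the fibroblast list, COL5A1 had 16.6 and 19.6 in NCI-H358 and 343.5 and 355.1 in A549. Most of the difference between the fibroblast sums of the lines came from this 1 gene. The part of these markers in the collagen IV result was not tested.

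**Figure D2:**
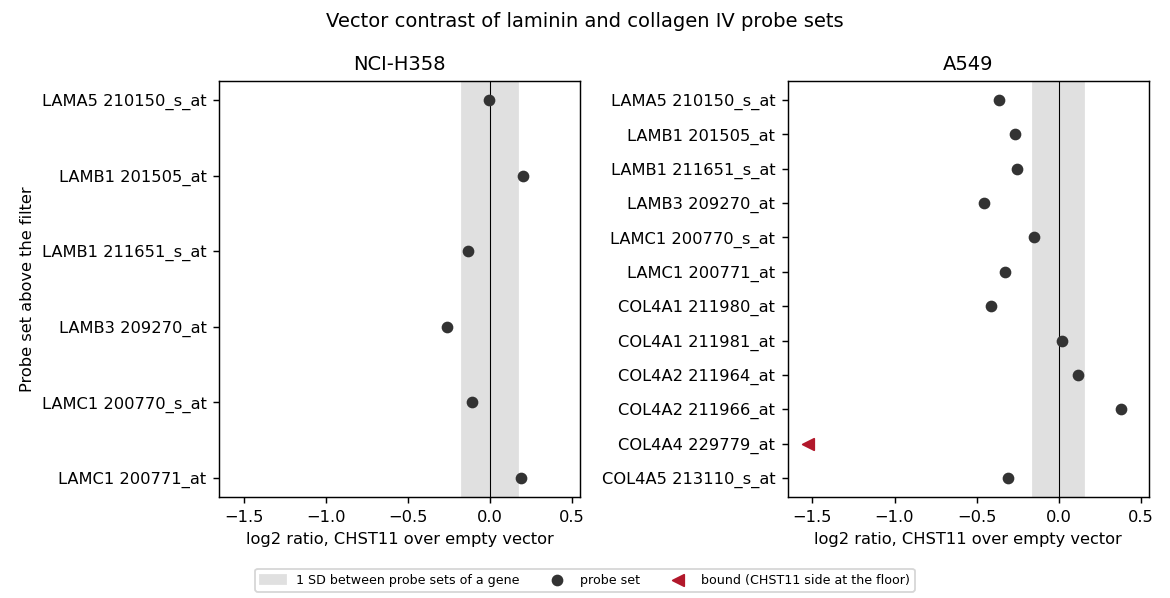
Log2 ratio, CHST11 over empty vector, of each laminin and collagen IV probe set above the filter in NCI-H358 (left, 6 probe sets) and A549 (right, 12 probe sets), with the band of 1 SD between probe sets of the same gene shaded. In A549, LAMA5, LAMB1, LAMB3, COL4A5 and COL4A4 lie below the band, LAMC1 and COL4A1 have 1 probe set below it and 1 inside it, and COL4A2 lies inside or above it. The triangle of COL4A4 is a bound, with its CHST11 signal at the floor.

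Set against empty vector, most laminin and collagen IV signals were lower with CHST11 in A549, by 1.20-fold (LAMB1) to 1.37-fold (LAMB3) for the laminin chains at their main probe sets, while in NCI-H358 the measured chains lay on both sides of 0. The spread of log2 ratios between probe sets of one gene, 0.158 in A549 and 0.173 in NCI-H358, is the gauge of error used here. Differences between cultures are not part of it. In A549, 7 of the 8 genes lay below 0, as did 45.3% of measured genes, and all 7 lay more than 1 such SD below 0, where 12.7% of the 11448 measured genes did, and COL4A2 had 0.12. Of these 7, COL4A4 counted as measured through its empty vector array only, so its ratio could only come out low. COL4A1 had 0.02 at its second probe set. With the median of a gene's probe sets in place of the main one, 5 genes lay more than 1 SD below 0. The genes were chosen with these ratios known, so this count is a description.

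The LAMA5 ratio in A549 was -0.36, that of LAMB1 -0.27 and -0.255 at its 2 probe sets, and that of LAMB3 -0.45. LAMC1 had -0.325 at the main probe set and -0.15 at the second, and -0.15 lies within the gauge of error. All 6 laminin probe sets thus lay below 0 in A549, and LAMB3, 1.37-fold lower, lay furthest. A lower ratio than that of LAMB3 was found for 1.485% of measured genes.

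COL4A1 and COL4A2, whose start windows overlap, had different ratios in A549, a difference that was not tested. COL4A1 had log2 ratios of -0.41 at the main probe set and 0.02 at the second. COL4A2 had 0.12 at the main probe set and 0.38 at the second. The COL4A1 probe sets differed by more than the gauge of error, so a change of COL4A1 with CHST11 was not settled. COL4A5 had -0.31.

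COL4A4 stood at the edge. Its signal of 14.95 in A549 with CHST11 was under the floor and its 46.5 with empty vector was above the filter, which made it at least 1.72-fold lower with CHST11 when the filter is taken as the lowest usable signal. It was the 1 gene of the 8 past 1.5-fold in A549, where 0.716% of measured genes were at least 1.5-fold lower on floored values. Its floored log2 ratio of -1.53 passes 2-fold, as did 0.0786% of measured genes, but the bound against the filter does not. None of the 8 was higher by 1.5-fold (0.489%) or 2-fold (0.0349%). Without it the next in order, LAMB3, was under 1.5-fold. In RNA of a whole culture, fewer cells with the transcript and less RNA per cell cannot be told apart.

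In NCI-H358, 4 of the 8 genes were measured, all of them laminins. LAMB3 had a log2 ratio of -0.26, more than 1 SD below 0 (12.8% of 11395 measured genes were), and LAMA5 had 0.00. LAMB1 had 0.20 at the main probe set and -0.13 at the second, and LAMC1 had 0.19 at the main probe set and -0.11 at the second. At the main probe set both genes were more than 1 SD above 0, where 17.6% of measured genes were, but the second probe set of each had the opposite sign. None of the 4 was past 1.5-fold, where 0.272% of measured genes were lower and 0.895% higher, or past 2-fold, where 0.0527% were higher. The direction of LAMB1 and LAMC1 in NCI-H358 was therefore not settled, while LAMB3 lay below 0 in both lines at its 1 probe set. The fitted difference with CHST11 shared by the lines was -0.36 (SE 0.098) for LAMB3 and -0.18 (SE 0.121) for LAMA5. It was -0.03 (SE 0.14) for LAMB1 and -0.07 (SE 0.148) for LAMC1. These genes were chosen with their ratios known, so the fitted values are a description and no test. For the vector difference shared by the lines, limma called 0 of 12271 genes after adjustment, while 374 (3.05%) had an unadjusted p under 0.05. With a variance trend those counts were 0 and 330.

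Genes with long mRNAs moved in the same pair of arrays. Of 51 measured genes on a list of long mRNAs that held none of the 8, 50 lay below 0 in A549 and 46 lay more than 1 SD below 0, with a median log2 ratio of -0.48. The 8 laminin and collagen IV genes had a median of -0.34 and all measured genes 0.01. The 7 measured genes of the mitochondrial genome lay between 0.53 and 0.86. In NCI-H358 the long mRNA list had a median of 0.14, with 41 of 50 genes above 0, and the laminins a median of 0.09. How long the laminin and collagen IV transcripts are was not examined. The part of this shift in the A549 values was not tested, and mRNA lengths were not used here.

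**Figure D3:**
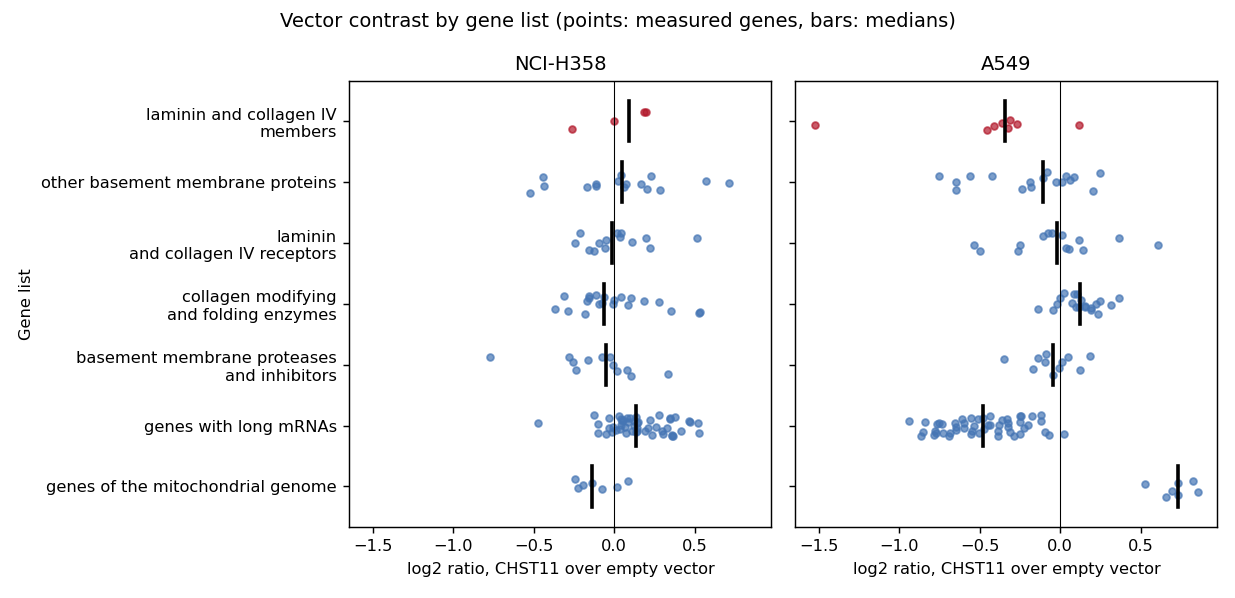
Log2 ratio, CHST11 over empty vector, of the measured genes of 7 lists in NCI-H358 (left) and A549 (right); points are genes and vertical bars are list medians. In A549 the laminin and collagen IV genes, at a median of -0.34, lie between the long mRNA genes at -0.48 and the other basement membrane proteins at -0.11.

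The remaining laminin and collagen IV chains were mostly not measured. LAMA1, LAMA2, LAMA4 and LAMB4 were under the filter at all 14 of their probe sets. LAMB2, a beta chain of vessel and neuromuscular basement membranes, had signals of 170.4 and 177.3 in NCI-H358 with CHST11 and with empty vector, and of 178.7 and 168.1 in A549 with CHST11 and with empty vector. Its fitted line difference was 0.00 (SE 0.094, limma adjusted p = 0.974). LAMC3 was near the filter, with 26.5 and 30.8 in NCI-H358 and 35.7 and 30.04 in A549 (-0.20, SE 0.14, limma adjusted p = 0.273). Neither passed the test between the lines, where limma called 33.9% of all genes higher and 30.6% lower. In A549 the vector ratio of LAMB2 was 0.09, within the gauge of error, and that of LAMC3 was 0.25, from signals near the filter. The 5 laminin probe sets of LAMA5, LAMB1, LAMB3 and LAMC1 beyond that gauge lay below 0.

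The calls between the lines on the lists that follow depend on the filter. With no filter on dim genes, limma called 4.9% of 19775 genes higher and 4.74% lower. Of the 52 list genes called with the filter, 16 kept their call, and over all genes 1739 of 7909 did. Among those named here they were COL4A6, TNC, FBLN2, SPOCK1, COL18A1, SDC4, SERPINH1, PLAT and TIMP4. Of these, COL4A6, TNC, FBLN2, SPOCK1, PLAT and TIMP4 were at the floor on both arrays of a line, and COL18A1, SDC4 and SERPINH1 were not. Values at the floor have no spread, so the p-values of such genes understate the error with and without the filter. Of the 52 list calls, 11 were of genes floored in this way, and of the 16 kept, 6 were.

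Of 20 measured genes on the list of other basement membrane proteins, 10 were higher in NCI-H358 and 6 were lower by the same test. Over all genes limma called 33.9% higher and 30.6% lower. With no filter, 6 of these 16 list calls were kept. TNC, tenascin-C, a matrix glycoprotein of injured and tumour tissue, had 1206 and 1048 in NCI-H358 with CHST11 and with empty vector, and 8.63 and 10.4 in A549. It was at least 41.6-fold higher (limma adjusted p = 2.62e-05). FBLN2, a fibulin that binds laminin, was at least 7.76-fold higher (adjusted p = 3.3e-05). SPARC, a collagen-binding glycoprotein that accompanies collagen IV, was lower, with 38.5 and 25.9 in NCI-H358 and 158.8 and 171.2 in A549 (fitted difference -2.39, SE 0.182, limma adjusted p = 0.000588, and 0.127 with no filter). SPOCK1, a testican proteoglycan, was at least 2.72-fold lower (adjusted p = 0.000108). NID2, which bridges laminin and collagen IV, was at least 1.58-fold lower (limma adjusted p = 0.00181, and 0.165 with no filter), with both NCI-H358 arrays at the floor, while NID1 was near the filter and HSPG2, perlecan, did not pass (0.46, adjusted p = 0.0741). COL18A1 was called lower (-0.55), but its other measured probe set had a difference of 1.135 in the opposite direction. NID1, NID2 and COL18A1 lie outside the rule by which list genes were named and were chosen after their values were seen.

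**Figure D4:**
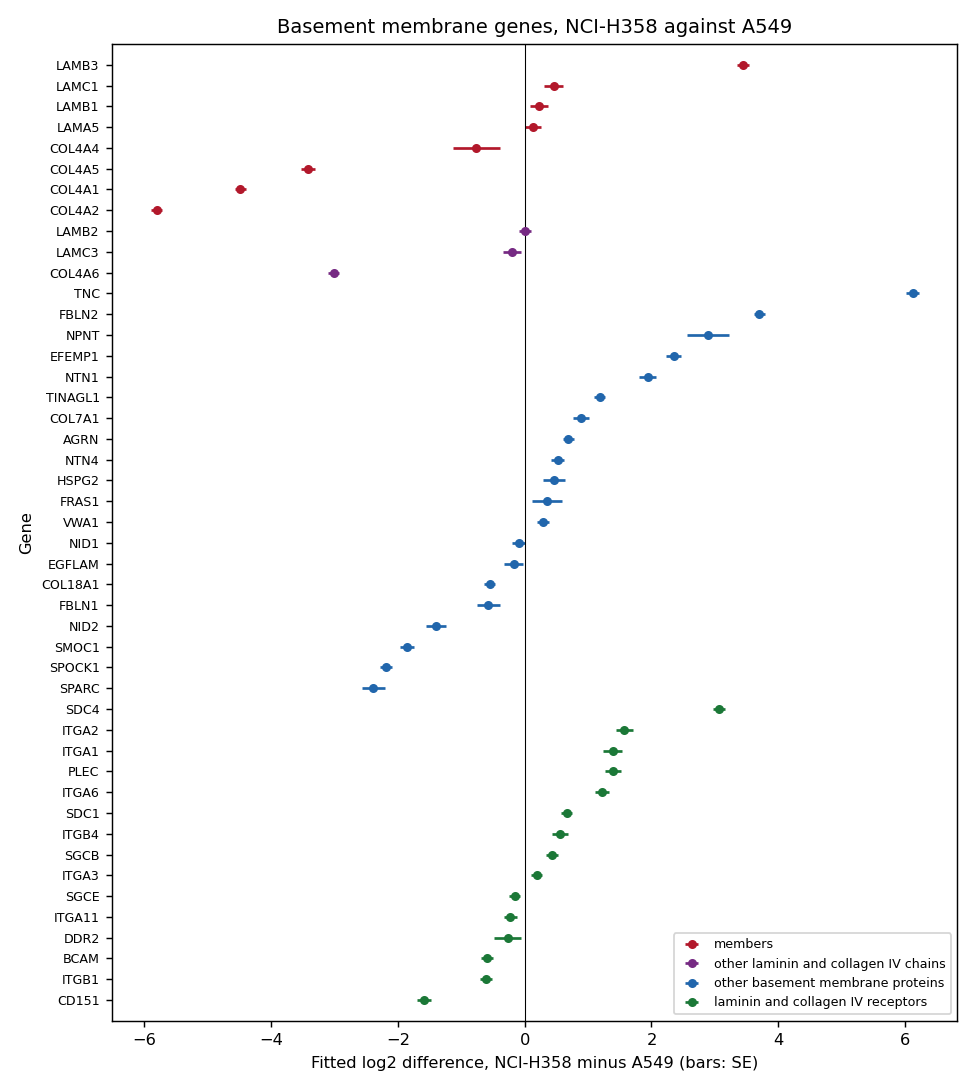
Fitted log2 difference, NCI-H358 minus A549, with its SE, for the 8 laminin and collagen IV genes, the other chains, the other basement membrane proteins and the receptors that were measured. LAMB3 stands at 3.44, the 3 laminin partners LAMA5, LAMB1 and LAMC1 at 0.13 to 0.46, and COL4A1, COL4A2, COL4A5 and COL4A6 at -3.01 or below.

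Of 15 measured receptors, 8 were higher and 3 lower in NCI-H358, where limma called 33.9% of all genes higher and 30.6% lower, and 3 of these 11 calls were kept with no filter. SDC4, a syndecan that works with integrins, had 1223 and 1449 in NCI-H358 with CHST11 and with empty vector, and 153.4 and 165.2 in A549 (3.06, SE 0.093, limma adjusted p = 5.73e-05). ITGA2, the collagen receptor subunit, was 2.97-fold higher (adjusted p = 0.000818), with a difference of 0.295 at its other measured probe set. The hemidesmosome subunits ITGA6 and ITGB4, which bind the laminin that holds LAMB3, differed by 1.23 (SE 0.111, limma adjusted p = 0.000952) and 0.56 (SE 0.124, adjusted p = 0.0156). CD151, a tetraspanin partner of laminin-binding integrins, was 2.99-fold lower (adjusted p = 0.00047), and ITGB1, the shared beta subunit, 1.52-fold lower (adjusted p = 0.00548). ITGA6 and ITGB4 were likewise chosen after their values were seen. In the vector contrast, PLEC, the hemidesmosome linker and a gene of the long mRNA list, was lowest in A549 at -0.54, and DDR2, a collagen receptor, highest at 0.61 from a signal near the filter. In NCI-H358, ITGA1 had 0.515 and SDC4 -0.24.

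Of 22 measured enzymes that modify and fold collagen, 7 were higher and 6 lower in NCI-H358, shares close to the 33.9% and 30.6% of all genes, and 3 of these 13 calls were kept with no filter. LOX, a crosslinking oxidase, was at least 2.55-fold higher (limma adjusted p = 0.000523, and 0.117 with no filter), with both A549 arrays at the floor. SERPINH1, the collagen chaperone, was 3.43-fold higher (1221 and 1306 in NCI-H358, 365 and 370.2 in A549, limma adjusted p = 0.000186). P4HA3, a prolyl hydroxylase subunit, was 3.83-fold lower (adjusted p = 0.000355) and KDELR3, an endoplasmic reticulum retrieval receptor, 2.42-fold lower (adjusted p = 0.00175). In A549, 17 of 20 measured genes of this list had a ratio above 0 and 3 below, where 45.3% of all measured genes lay below 0. The list median was 0.13 beside 0.01 over all measured genes. Of the 20, 7 lay more than 1 SD above 0, where 15.1% of all measured genes did. P3H1, a prolyl hydroxylase, was highest at 0.365, and MIA3, the export receptor for large collagens, lowest at -0.14. None was past 1.5-fold. In NCI-H358 the median was -0.06, with LOX at 0.53 and P3H3 at -0.37.

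Of 14 measured proteases and inhibitors that act on basement membranes, 7 were higher and 4 lower in NCI-H358 (33.9% and 30.6% of all genes), and 3 of these 11 calls were kept with no filter. PLAT, tissue plasminogen activator, was at least 8.07-fold higher (limma adjusted p = 3.21e-05) and HPSE, heparanase, 7.36-fold higher (adjusted p = 0.000125). MMP7, matrilysin, was 10.5-fold lower (adjusted p = 9.1e-05) and TIMP4, an inhibitor of metalloproteinases, at least 5.29-fold lower (adjusted p = 4.78e-05). In the vector contrast, MMP9, a gelatinase that cuts collagen IV, had 76.2 and 130.2 in NCI-H358 with CHST11 and with empty vector (-0.77), and MMP7 had 0.34. HPSE was lowest in A549 at -0.35 and MMP2 highest at 0.185. Among the other basement membrane proteins, NPNT, nephronectin, had 0.71 in NCI-H358 and SMOC1 -0.52. In A549, COL7A1 was highest at 0.25 and HSPG2 lowest at -0.75.

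Genes with the most similar pattern were named by the root mean square difference of log2 signals centred on each gene's mean, over 4 arrays and 12271 genes. With 4 arrays this measure is set mostly by the line difference. For LAMB3 they were DDX60 (0.106) and SPOCD1 (0.114). For COL4A1 they were COL5A1 (0.186), a fibrillar collagen chain, and CYSTM1 (0.201), and for COL4A2 NUDT19 (0.025) and FSTL1 (0.059). COL4A5 was nearest to COL11A1 (0.054), another fibrillar collagen chain, and NEFL (0.068). COL4A4 was nearest to CST1 (0.18) and C4BPB (0.208), with signals of 13.4 and 22.1 in A549 with CHST11 and 34.9 and 44.2 with empty vector. The zero spread of genes floored on both NCI-H358 arrays enters these values.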

How the data were processed

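Gene expression was measured on 4 Affymetrix arrays, 1 per group. The authors deposited linear intensities, made with MAS5 per the submitters' processing notes. The version and scaling used are not stated there. Groups came from the sample labels. Signals were floored at 16.14 (50th percentile) and log2 was taken; measured means a signal of at least 27 (60th percentile) on 1 of 2 arrays of a line. Of a gene's single-gene probe sets, the one brightest on average stood for it. Lines were compared with limma (version 3.58.1, R 4.3.3, lmFit with line and vector as terms, then eBayes, 1 residual degree of freedom, Benjamini-Hochberg adjusted p of 0.05 over 12271 genes). The code was run on simulated data in which few genes differed and no values were set to the floor. That run does not cover floored genes or the large share of genes called here. The 2 arrays of a line differ in vector and are not replicates. The residual of the fit is how far the line difference changes with the vector, moderated across genes by eBayes. The p-values rest on that residual and not on a spread between replicate cultures. Motifs were searched in RefSeq windows. Tables used Python 3.11.15 and pandas 2.3.3. Members and lists were chosen with earlier results of these data known. Named were all 9 members, the other chains, the 2 highest and 2 lowest called genes of each list between lines, the highest and lowest of each list per vector contrast, and the 2 nearest genes by pattern; a few others are named for their role, after their values were seen. Alternatives covered normalization, floor, filter, probe set choice and variance prior.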

Additional observations from a re-analysis of the deposited data

Results flagged for a closer look

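The vector contrast of LAMB1 and LAMC1 ran in opposite directions in the 2 lines at the main probe set of each, with all 4 ratios beyond 1 SD of the probe set spread. LAMB1 had a log2 ratio, CHST11 over empty vector, of 0.20 in NCI-H358 and -0.27 in A549, and LAMC1 had 0.19 in NCI-H358 and -0.32 in A549. The difference between the lines was not tested, since each ratio rests on 1 array per group. The second probe sets had -0.13 in NCI-H358 and -0.25 in A549 for LAMB1, and -0.11 in NCI-H358 and -0.15 in A549 for LAMC1, so they lay below 0 in both lines. On the same arrays the genes with long mRNAs had a median of 0.14 in NCI-H358, with 41 of 50 above 0, and of -0.48 in A549, with 50 of 51 below 0. Their part in the LAMB1 and LAMC1 ratios was not tested.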

How the results depend on the processing

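The median ratio of the measured laminin and collagen IV genes ran from -0.36 to -0.24 in A549 and from 0.00 to 0.13 in NCI-H358 over 8 alternatives, and 5 to 7 genes lay more than 1 SD below 0 in A549. The count of genes at least 1.5-fold lower in A549, 1 in the text, was 0 with the filter at the 75th percentile and 0 with the median of probe sets, COL4A4 having no measured value under either. With no filter, 2 genes lay more than 1 SD below 0 in NCI-H358, COL4A1 being added under the filter. Without the filter limma called 12 genes of the basement membrane lists higher and 5 lower between the lines, against 32 and 20 in the text, with 19775 instead of 12271 genes tested. With the median of probe sets, COL4A1 had -0.19 in A549, and the line differences of COL4A2 and COL4A5 were -3.97 and -1.71. The shared vector fit called 0 genes under each of its alternatives. Each group has 1 array, so no replicate number can be a block; the vector fit has the line as a term and thus pairs the arrays by line. Detection calls were not used here, so signals under the filter are bounds.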
